A study of Mus musculus with 18 samples.

Results

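The 10 genes described here encode the nonoxidative part of the pentose phosphate pathway (PPP) and its side branches, and were taken from the count table by gene symbol from its 35275 genes. They are *Taldo1*, *Tkt*, *Tktl1*, *Tktl2*, *Rpia*, *Rpe*, *Shpk*, *Rbks*, *Pgls* and *H6pd*, and all 10 were found. RNA was sequenced from 18 cultures of 6 mouse malignant peripheral nerve sheath tumor (MPNST) lines, with 3 cultures of each line. The tumors were started in wild-type mice of a single inbred strain by an adenovirus, injected into the sciatic nerve, that carried CMV-driven Cas9 and guide RNAs. In the *Nf1*/*p53* dKO group (3 lines, genotype Nf1-/-;p53-/-) the guides targeted *Nf1* and *p53*, and in the *Nf1*/*Cdkn2a* dKO group (3 lines, genotype Nf1-/-;Cdkn2a-/-) they targeted *Nf1* and *Cdkn2a*. Both groups therefore share the *Nf1* targeting, the Cas9 virus and the absence of any drug, and no normal nerve and no *Nf1*-only line was compared. Each line came from a separate tumor and had been passaged many times, so the line is the replicate (n = 3 per genotype) and the cultures of a line measure the spread within that line.

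The nonoxidative branch is a set of reversible sugar exchanges that runs between the pentose phosphates and glycolysis. Transketolase (*Tkt*) moves units of a pair of carbons with thiamine diphosphate as its cofactor, and transaldolase (*Taldo1*) moves the dihydroxyacetone unit from sedoheptulose phosphate to glyceraldehyde phosphate. *Rpia* and *Rpe* interconvert the pentose phosphates, so that ribose phosphate can feed nucleotide synthesis or return to glycolysis. The side branches add sedoheptulose (*Shpk*) or ribose (*Rbks*) by phosphorylation. *Pgls* opens the lactone made in the oxidative branch, the branch that yields NADPH. *H6pd* runs the first steps of the oxidative branch inside the endoplasmic reticulum. The study also measured metabolites of these lines by mass spectrometry, among them the substrates or products of these enzymes sedoheptulose phosphate, ribose phosphate, ribose, fructose phosphate and phosphogluconate. Those values are not part of the counts and were not analysed here.

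Library totals ran from 19560535 to 28312207 counts (median 23149777), the lines summed to 65206479 to 73065228 counts, and mitochondrial transcripts took 1.92% to 3.19% of a library. The label calls the cells mesenchymal, and *Vim*, an intermediate filament of mesenchymal cells, stood between 4727 and 10207 CPM (read counts scaled to library size by TMM) in the 6 lines. Another of the 8 mesenchymal markers, *Lum*, was at 17.0, 1.41 and 65.4 CPM (*Nf1*/*p53* dKO) and at 0, 0.0433 and 0.0313 CPM (*Nf1*/*Cdkn2a* dKO). The 6 epithelial markers summed to 2.67 to 739 and 8.26 to 611 CPM in the respective genotypes, with none called. Of these, *Krt8* was at 540 CPM in *Nf1*/*p53* dKO line 2 and at 601 CPM in *Nf1*/*Cdkn2a* dKO line 1. Of the Schwann lineage markers, *Sox10* was at or below 0.0990 CPM in every line. Another, *Pmp22*, was at 19.1, 48.8 and 71.3 CPM (*Nf1*/*p53* dKO) and at 17.5, 13.2 and 41.6 CPM (*Nf1*/*Cdkn2a* dKO). *Ngfr* was at 64.3 CPM in *Nf1*/*p53* dKO line 2 and far lower in the other lines. *Trp53*, the target in the first group, was at 94.1, 67.5 and 58.7 CPM (*Nf1*/*p53* dKO) and at 247, 246 and 185 CPM (*Nf1*/*Cdkn2a* dKO) (log2 fold change 1.62, edgeR adjusted p = 0.0361). *Nf1* and *Cdkn2a* transcript levels overlapped between the groups, and a guide can disrupt a gene without lowering its transcript. The 6 muscle markers summed to 53.7 to 417 CPM (*Nf1*/*p53* dKO) and to 0.203 to 0.802 CPM (*Nf1*/*Cdkn2a* dKO). Of the 4 tested (*Myf5*, *Myod1*, *Des* and *Cdh15*), *Myf5* and *Cdh15* were called lower in *Nf1*/*Cdkn2a* dKO. *Myod1*, and *Myog*, which was not tested, had no count in those lines. In the *Nf1*/*p53* dKO lines *Myod1* was at 1.75, 0.269 and 204 CPM, so it was high in line 3 only. The 8 Schwann lineage markers summed to 27.4 to 117 and 15.7 to 44.5 CPM in the respective genotypes, with none called. Leukocyte markers summed to at most 8.39 CPM and endothelial markers to at most 2.503 CPM in any line. Of the 4 endothelial markers tested, 1, *Tek*, was called lower in *Nf1*/*Cdkn2a* dKO (log2 fold change -3.23, edgeR adjusted p = 0.0465). It was low in both groups (0.412 to 1.08 against 0.0642 to 0.0782 CPM). In all, 3 had lower fitted values and 1, *Cdh5*, a higher one (1.61, edgeR adjusted p = 0.221). Muscle transcripts thus separated the genotypes in the opposite direction to the *Taldo1* difference given here. Their part in that difference was not tested.

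*Taldo1* was the member that separated the genotypes most, and *Tkt* was the most read member that did not separate them. The 250 bases before the RefSeq start of each are shown for that reason (GRCm38.p6, both on the plus strand), with the letters GGGCGG and CCAAT in capitals wherever they occur on either strand.
Taldo1, chr7:141391910-141392159: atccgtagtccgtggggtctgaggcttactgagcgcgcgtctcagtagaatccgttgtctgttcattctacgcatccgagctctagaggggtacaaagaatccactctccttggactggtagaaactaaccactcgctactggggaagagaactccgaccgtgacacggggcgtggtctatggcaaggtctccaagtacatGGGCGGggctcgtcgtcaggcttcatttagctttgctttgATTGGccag
Tkt, chr14:30548881-30549130: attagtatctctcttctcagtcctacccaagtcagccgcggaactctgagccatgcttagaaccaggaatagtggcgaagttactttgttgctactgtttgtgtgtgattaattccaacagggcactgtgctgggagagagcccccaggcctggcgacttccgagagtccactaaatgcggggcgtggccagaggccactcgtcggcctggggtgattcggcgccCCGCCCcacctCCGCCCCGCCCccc
The *Taldo1* window held GGGCGG once, 49 bases before the start, and CCAAT once, on the opposite strand and 9 bases before the start. The *Tkt* window held GGGCGG on the opposite strand at 25, 14 and 9 bases before the start, the last 2 overlapping by 1 base, and no CCAAT. Among 32851 RefSeq windows of the same length, GGGCGG was found in 32.7% and CCAAT in 33.8%. Of the 10 members, 8 held GGGCGG (all but *H6pd* and *Tktl2*) and 4 held CCAAT (*Taldo1*, *H6pd*, *Shpk* and *Tktl2*). TGACNNNGC, the core of the antioxidant response element that NRF2 binds, was found in 10.2% of all windows and in those of *Rbks* and *Tktl1*, but not in that of *Taldo1* or *Tkt*. TATAAA (12.4% of windows) and CACGTG (6.02%) were in none of the 10 member windows. A match describes letters in the window, and says nothing about whether a factor binds there.

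To compare levels between genes, CPM were divided by the length of the gene's principal transcript in kilobases. On this per-length scale the order over the 6 lines was *Taldo1*, *Tkt*, *Pgls*, *Rpe*, *H6pd*, *Rpia*, *Rbks*, *Shpk*, *Tktl1* and *Tktl2*, and it was the same when the union of all exons gave the length. In the *Nf1*/*Cdkn2a* dKO lines the level of *Taldo1* per kilobase was 210, 210 and 216, above that of *Tkt* at 99.9, 145 and 114. In the *Nf1*/*p53* dKO lines the 2 genes overlapped, with *Taldo1* at 108, 87.7 and 111 and *Tkt* at 133, 72.3 and 71.9 per kilobase. *Pgls* lay beside *Tkt*, and the ranges of these neighbours overlapped in both genotypes, but not when the exon union gave the length (14.4 to 24.8 against 31.5 to 58.5 for *Nf1*/*p53* dKO, and 23.6 to 30.8 against 43.8 to 63.6 for *Nf1*/*Cdkn2a* dKO). *Pgls* was at 60.7 to 104 per kilobase (*Nf1*/*p53* dKO) and at 99.7 to 130 per kilobase (*Nf1*/*Cdkn2a* dKO). *Rpe*, *H6pd* and *Rpia* formed a middle tier between 6.67 and 20.04 per kilobase, within which neighbours overlapped in the *Nf1*/*p53* dKO lines and did not in the *Nf1*/*Cdkn2a* dKO lines. By exon union *H6pd* and *Rpia* were apart in both genotypes. The sugar kinases *Rbks* and *Shpk* stayed between 0.363 and 1.01 per kilobase, below every value of that tier, and *Rbks* lay above *Shpk* in every line, although by exon union it lay below *Shpk* in 3 of the 6.

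**Figure D1:**
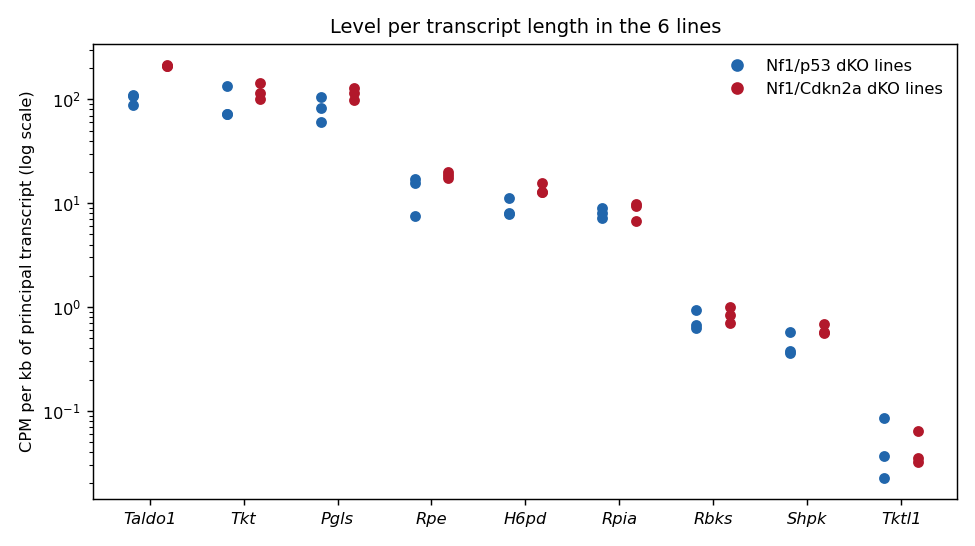
Level of 9 members in the 6 lines, as CPM per kilobase of principal transcript on a log axis, with 1 point per line, blue for *Nf1*/*p53* dKO and red for *Nf1*/*Cdkn2a* dKO. *Tktl2*, at 0 in every library, is not drawn, and the *Taldo1* points of the genotypes stand apart (87.7 to 111 against 210 to 216).

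Between the genotypes, *Taldo1* rose and no other member passed the test. edgeR tested 15207 genes on counts summed per line (n = 3 lines against 3), and called 274 of them (1.8%) at an adjusted p under 0.05, 97 higher in *Nf1*/*Cdkn2a* dKO (0.638%) and 177 lower (1.16%). Of the 10 members, 8 had enough counts to be tested and 1 was called. In cultures, fewer cells of a kind and less RNA per cell cannot be told apart. All 8 had a fitted value higher in the *Nf1*/*Cdkn2a* dKO lines (7 with raw library totals, where *Rpia* turned), with a median log2 fold change of 0.47 against -0.02 over all genes tested. For 3 members (*Taldo1*, *Rpe* and *H6pd*) every *Nf1*/*Cdkn2a* dKO line lay above every *Nf1*/*p53* dKO line, as it did for 14.8% of all genes tested, and 31.4% had no overlap in either direction. An unadjusted p under 0.05 was found for 2 members (*Taldo1* and *H6pd*), where 22.4% of all genes had one. The study itself had examined PPP transcripts in these same libraries, so the direction of the list is not independent evidence.

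*Taldo1* (ENSMUSG00000025503, chr7:141392199-141402968 in GRCm38 by GENCODE M21, as for the genes that follow, plus strand) encodes transaldolase. Its level was 132, 108 and 137 CPM (*Nf1*/*p53* dKO) and 259, 258 and 266 CPM (*Nf1*/*Cdkn2a* dKO), with lines 1, 2 and 3 in that order here and for every gene. The 3 *Nf1*/*Cdkn2a* dKO lines lay close together and all above the *Nf1*/*p53* dKO lines, also when the 18 cultures were looked at one by one (102 to 142 against 212 to 286 CPM). The means were 126 ± 15.6 and 261 ± 4.46 CPM (SD, n = 3 lines each), a 2.08-fold difference (95% interval 1.64 to 2.63). The log2 fold change was 1.05 (SE 0.14, edgeR adjusted p = 0.0359), and *Taldo1* stood at rank 85 of the 15207 genes by p. The call did not survive leaving out a line, except for *Nf1*/*p53* dKO line 3 (adjusted p = 0.0499). Without *Nf1*/*p53* dKO line 1 or 2 it was 0.0606 and 0.0701, and without *Nf1*/*Cdkn2a* dKO line 1, 2 or 3 it was 0.124, 0.118 and 0.1003, while the log2 fold change stayed between 0.97 and 1.12 over the 6 fits.

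*Tkt* (chr14:30548359-30574720, plus strand, a span that holds the RefSeq start used for its window) encodes transketolase. It was at 430, 233 and 232 CPM (*Nf1*/*p53* dKO) and at 322, 468 and 368 CPM (*Nf1*/*Cdkn2a* dKO). *Nf1*/*p53* dKO line 1 stood as high as the upper *Nf1*/*Cdkn2a* dKO lines, so the groups overlapped. The means were 298 ± 114 and 386 ± 74.5 CPM (SD, n = 3 lines each), with a log2 fold change of 0.37 (SE 0.29, 95% interval -0.33 to 1.07, edgeR adjusted p = 0.494). Without *Nf1*/*p53* dKO line 1 the fitted log2 fold change was 0.73 (adjusted p = 0.145), and without *Nf1*/*Cdkn2a* dKO line 2 it was 0.22.

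**Figure D2:**
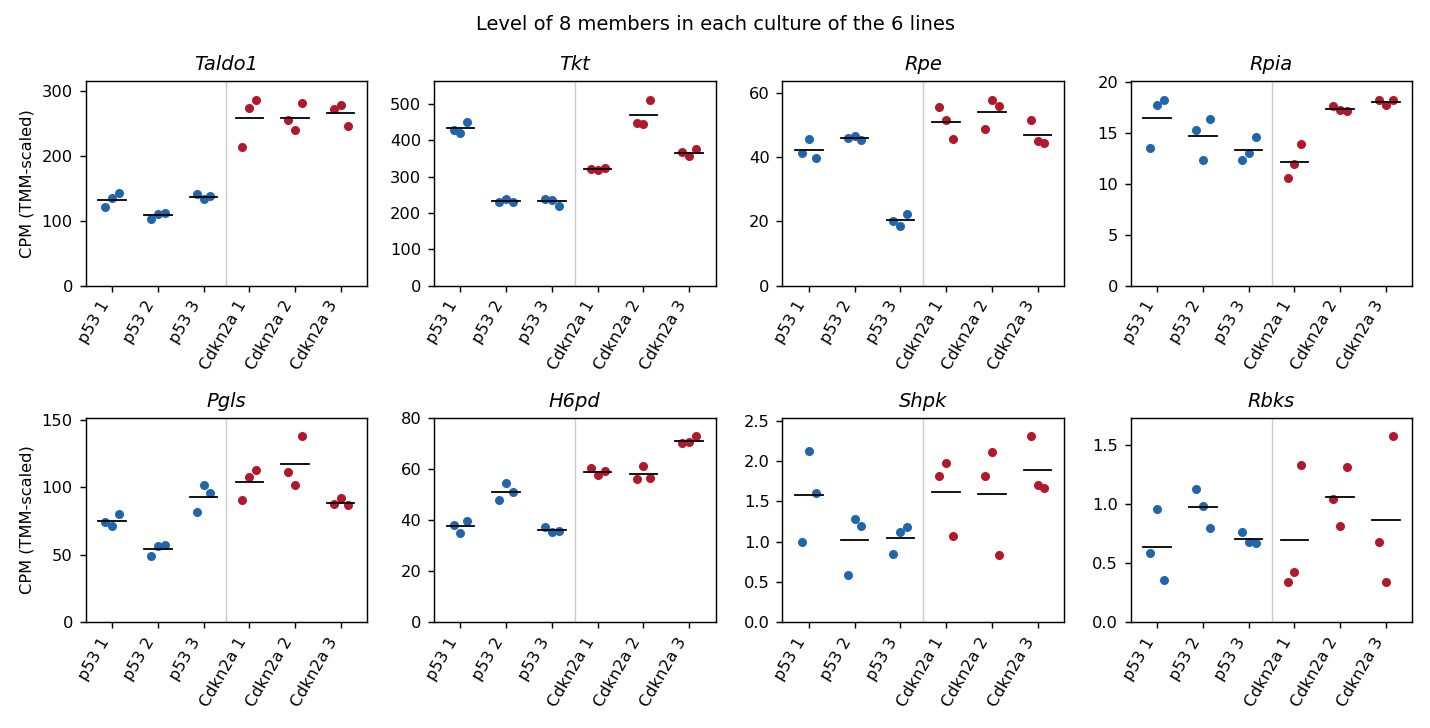
CPM of 8 members in each culture (points) of each line, on linear axes that start at 0, with a bar at the mean of the line's 3 cultures. *Taldo1* is higher in every *Nf1*/*Cdkn2a* dKO culture (red) than in every *Nf1*/*p53* dKO culture (blue), while *Tkt* is highest in 1 line of each genotype.

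The transketolase-like genes were close to silent. *Tktl1* (chrX:74177259-74208500) had 7, 15 and 4 counts (*Nf1*/*p53* dKO) and 5, 6 and 10 counts (*Nf1*/*Cdkn2a* dKO), 47 in all, and was at 0 in 6 of the 18 libraries. A count of 3 in a line, the limit that a count of 0 allows, is worth 0.0387 to 0.0481 CPM. *Tktl2* (chr8:66511756-66518335) had 0 counts among 415520752, which allows up to 3 counts in a line. The floors cover counting error only. Neither gene had enough counts to be tested, and transketolase transcript in these cells was read almost wholly from *Tkt*.

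The ratio of *Taldo1* to *Tkt* reads was not shown to differ between genotypes. Its log2 value was -1.70, -1.11 and -0.76 (*Nf1*/*p53* dKO) and -0.32, -0.86 and -0.47 (*Nf1*/*Cdkn2a* dKO). *Nf1*/*Cdkn2a* dKO line 2 and *Nf1*/*p53* dKO line 3 crossed. The means differed by 0.64 (-1.19 ± 0.48 against -0.55 ± 0.28, SD, n = 3 lines each), with an exact two-sided permutation p of 0.2, where 3 lines against 3 cannot go below 0.1.

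**Figure D3:**
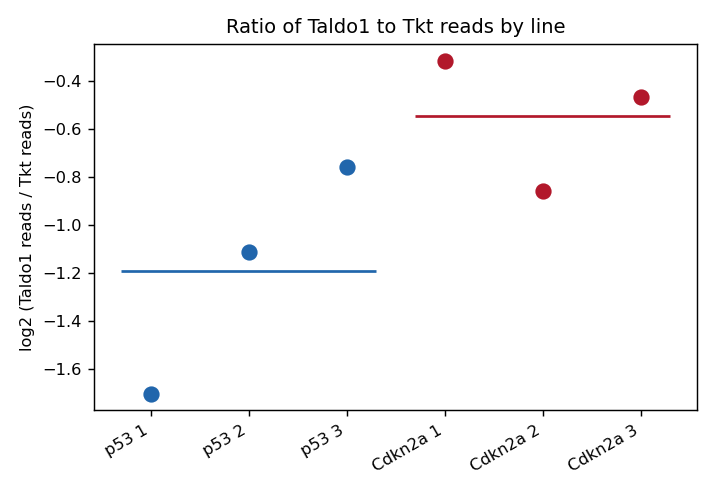
Log2 of *Taldo1* reads over *Tkt* reads in each of the 6 lines (points), with a horizontal bar at the mean of each genotype (-1.19 and -0.55). The genotypes overlap through *Nf1*/*p53* dKO line 3 and *Nf1*/*Cdkn2a* dKO line 2.

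Neither the pentose phosphate isomerase nor the epimerase passed the test. *Rpia* (chr6:70765720-70792232, minus strand), which interconverts ribose phosphate and ribulose phosphate, was at 16.5, 14.6 and 13.3 CPM (*Nf1*/*p53* dKO) and at 12.2, 17.4 and 18.1 CPM (*Nf1*/*Cdkn2a* dKO). The highest and the lowest of the 6 lines were both *Nf1*/*Cdkn2a* dKO lines, and the log2 fold change of 0.10 (95% interval -0.44 to 0.64, adjusted p = 0.815, edgeR) became -0.032 when raw library totals replaced TMM scaling. *Rpe* (chr1:66700831-66719805, plus strand), the epimerase of ribulose phosphate, was at 42.3, 45.9 and 20.3 CPM (*Nf1*/*p53* dKO) and at 50.6, 53.9 and 47.2 CPM (*Nf1*/*Cdkn2a* dKO). The groups did not overlap, but most of the gap came from *Nf1*/*p53* dKO line 3. The log2 fold change was 0.49 (95% interval -0.25 to 1.22, edgeR adjusted p = 0.393), and 0.20 without that line. *Rpe* shares 558 exon bases (17.9% of its exons) with *Kansl1l* on the opposite strand, whose level was 16.3% to 41.6% of that of *Rpe*. Whether counting used strand is not given in the sources used here, so *Rpe* counts are uncertain.

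The enzymes tied to the oxidative branch lay higher on average in the *Nf1*/*Cdkn2a* dKO lines without passing the test. *H6pd* (chr4:149979475-150009023, minus strand) was at 37.2, 51.2 and 36.1 CPM (*Nf1*/*p53* dKO) and at 59.2, 58.0 and 71.6 CPM (*Nf1*/*Cdkn2a* dKO). The groups did not overlap. The means were 41.5 ± 8.41 and 62.9 ± 7.49 CPM (SD, n = 3 lines each), with a log2 fold change of 0.60 (SE 0.19, 95% interval 0.15 to 1.05) and an edgeR adjusted p of 0.133. *Pgls* (chr8:71592176-71601092, plus strand) was at 74.4, 54.2 and 93.3 CPM (*Nf1*/*p53* dKO) and at 104, 116 and 89.0 CPM (*Nf1*/*Cdkn2a* dKO). *Nf1*/*p53* dKO line 3 was above *Nf1*/*Cdkn2a* dKO line 3, so the groups overlapped, and the log2 fold change was 0.48 (95% interval -0.06 to 1.01, edgeR adjusted p = 0.268), and 0.31 without *Nf1*/*p53* dKO line 2. *Pgls* shares 776 exon bases (20.6% of its exons) with *Fam129c* on the same strand, whose level was 1.42% to 5.14% of that of *Pgls*.

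The sugar kinases were rare and gave wide intervals. *Shpk* (chr11:73199460-73224511, plus strand), the sedoheptulokinase, lies 3.61 Mb from the end of *Trp53* on the same chromosome. It was at 1.62, 1.02 and 1.05 CPM (*Nf1*/*p53* dKO) and at 1.59, 1.63 and 1.91 CPM (*Nf1*/*Cdkn2a* dKO), and *Nf1*/*p53* dKO line 1 fell within the other group. Its log2 fold change was 0.47 (SE 0.35, edgeR adjusted p = 0.473), and 0.72 without that line. *Rbks* (chr5:31624439-31697627, minus strand), the ribokinase, was at 0.66, 0.98 and 0.71 CPM (*Nf1*/*p53* dKO) and at 0.74, 1.05 and 0.88 CPM (*Nf1*/*Cdkn2a* dKO). The groups overlapped, with a log2 fold change of 0.19 (SE 0.37, edgeR adjusted p = 0.791) that ran from 0.056 to 0.40 with 1 line left out. A library held 14 to 64 *Shpk* counts and 7 to 34 *Rbks* counts, and the 95% intervals of their log2 fold changes reached 1.32 and 1.08, so that the 1.05 of *Taldo1* lay inside both. It also lay inside the intervals of the more highly read *Tkt* and *Rpe*, which reached 1.07 and 1.22.

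**Figure D4:**
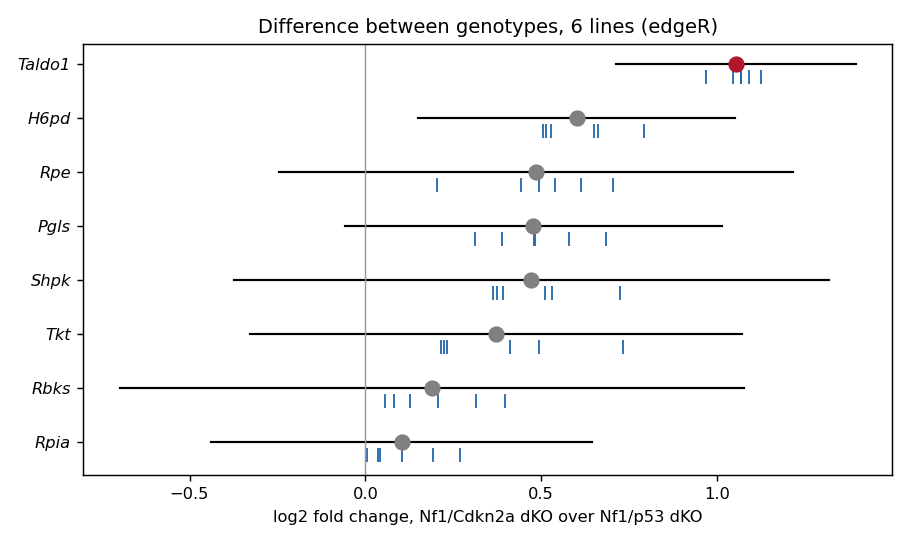
Log2 fold change between genotypes for the 8 members tested (edgeR, 6 lines), with 95% intervals as black bars and, below each, blue ticks for the 6 fits that each leave out 1 line. *Taldo1* (red, 1.05) is the called member, and its ticks run from 0.97 to 1.12.

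Lines of the same genotype differed from each other in several members. Among the *Nf1*/*p53* dKO lines, edgeR's quasi-likelihood F test on the cultures called 5 of 8 members (*Taldo1*, *Tkt*, *Rpe*, *Pgls* and *H6pd*), where it called 10758 of 14690 genes (73.2%). Among the *Nf1*/*Cdkn2a* dKO lines it called 4 of 8 (*Tkt*, *Rpia*, *Pgls* and *H6pd*), where it called 8342 genes (56.8%). *Rpe* had the largest spread of the called members, at 2.26 times between *Nf1*/*p53* dKO lines 2 and 3 (adjusted p = 3.60e-11, edgeR). *Tkt* spread 1.87 times among the *Nf1*/*p53* dKO lines (adjusted p = 3.03e-14, edgeR) and 1.46 times among the *Nf1*/*Cdkn2a* dKO lines (adjusted p = 2.30e-08, edgeR). *Taldo1* spread 1.27 times among the *Nf1*/*p53* dKO lines (adjusted p = 0.00200, edgeR) and 1.03 times among the *Nf1*/*Cdkn2a* dKO lines, the latter within the spread of the cultures (adjusted p = 0.892, edgeR). These tests compare the lines of a genotype against the spread between cultures, so they bear on those lines and not on a genotype. The paper states that each line was plated in triplicate, and its legends call the triplicates independent samples. Whether they differed in day or passage is not given, so their spread may be technical.

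The genes whose centred log2 levels over the 6 lines lay nearest to those of *Taldo1*, of 9138 compared, were *Hdgfrp3*, *Capn1* and *Orai3* (root mean square differences of 0.07, 0.10 and 0.10). Those nearest to *Tkt* were *Cnnm3*, *Dtnb* and *Wdr6* (0.09, 0.09 and 0.10). The members themselves were left out of this search, so it does not show how near they lie.

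Around the pathway, 2 of the 31 neighbour genes tested were called, both higher in the *Nf1*/*Cdkn2a* dKO lines. Over all genes tested, 1.8% were called and 0.638% were called higher. The first, *Slc19a2*, carries thiamine, the vitamin from which the cofactor of transketolase is made. It was at 14.7, 12.9 and 10.6 CPM (*Nf1*/*p53* dKO) and at 53.4, 64.3 and 30.7 CPM (*Nf1*/*Cdkn2a* dKO). The groups did not overlap (log2 fold change 1.96, SE 0.30, edgeR adjusted p = 0.0427), and the call was lost whichever of the 6 lines was left out (adjusted p = 0.0506 to 0.142). Of the 5 thiamine supply genes tested, 4 had higher and 1 a lower fitted value, and no other was called.

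The second, *Dcxr*, reduces xylulose in the pentose and polyol side routes. It was at 2.35, 2.36 and 2.01 CPM (*Nf1*/*p53* dKO) and at 10.6, 11.8 and 16.2 CPM (*Nf1*/*Cdkn2a* dKO) (log2 fold change 2.52, edgeR adjusted p = 0.0248). Among the 6 fits that leave out a line, it kept its call in those without *Nf1*/*p53* dKO line 1 or line 3. Of the 7 genes of that list 5 had lower fitted values, down to *Sord*, the sorbitol dehydrogenase (-1.29, edgeR adjusted p = 0.0528, and called in 9 of 17 alternative settings).

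None of the remaining pathway lists held a called gene by edgeR. For the counts that follow, 22.4% of all genes tested had an unadjusted p under 0.05. In the oxidative branch both genes tested had a higher fitted value and an unadjusted p under 0.05, with *Pgd* at 241 ± 29.9 and 354 ± 63.9 CPM (SD, n = 3 lines each, log2 fold change 0.55, edgeR adjusted p = 0.155). The other, *G6pdx*, was at 126 ± 25.2 and 176 ± 26.0 CPM (log2 fold change 0.48, edgeR adjusted p = 0.214), and its groups overlapped. Of 9 genes tested at the links to glycolysis, 3 had higher and 6 lower fitted values and 1 an unadjusted p under 0.05, from *Aldoa* (0.17, or 0.07 to 0.43 with 1 line left out) to *Aldoc* (-1.20, or -2.02 to -0.62). Of 8 genes listed under ribose phosphate use, 3 had higher and 5 lower values and 2 an unadjusted p under 0.05. They ran from *Umps* (0.25, and -0.0038 without *Nf1*/*p53* dKO line 3) to *Pgm2* (-0.63, edgeR adjusted p = 0.0992). The list went by the symbols of the deposited counts, where *Pgm2* is ENSMUSG00000025791. Whether that gene acts on ribose phosphate was not checked. Of 10 antioxidant genes linked to NRF2, which are not among those 31, 8 had higher and 2 lower values and 3 an unadjusted p under 0.05, from *Nqo1* (1.83, edgeR adjusted p = 0.0522) to *Gclc* (-0.58).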

How the data were processed

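RNA-seq libraries of 18 cultures (6 lines, 3 per genotype) were deposited by the authors as raw counts per gene, with no normalization. The submitters' processing notes name CASAVA, STAR 2.5, DESeq2 1.14.1 and GRCm38 (mm10). The counting tool, annotation, strand setting and treatment of reads that match several genes are not given in the sources used here. Counts of the 3 cultures of a line were summed, genes were filtered with filterByExpr (minimum count 10), scaled by TMM and tested with edgeR 4.0.16 (quasi-likelihood, Benjamini-Hochberg, R 4.3.3). CPM are TMM-scaled. Lines of a genotype were compared on the 18 cultures. Alternatives used DESeq2 1.42.0 and limma 3.58.1. Levels per length used the APPRIS principal transcript of GENCODE M21 (GRCm38), the shortest where several are marked. That length and its alternative were chosen after seeing the data. The members and gene lists were chosen with earlier results of these data known. Every member was named. Of the other lists, genes were named where called or where they had the highest or lowest log2 fold change. The cell type markers named were chosen after their values were seen. Some genes of these lists are not reported here. The genes nearest to *Taldo1* and *Tkt* were the 3 with the smallest root mean square difference among genes with a mean of at least 10 CPM, members left out.

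On simulated counts for the comparison of 6 lines (14894 genes), the test called 3 of 100 genes changed by 1 on the log2 scale, 61 of 100 changed by 2, and 4 unchanged genes. For the comparison within a genotype (14213 genes) it called 185 of 200 genes changed by 1 and 9 unchanged genes.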

Additional observations from a re-analysis of the deposited data

How the results depend on the processing

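The number of members called between genotypes (1 by edgeR on 6 lines) was 4 (with *H6pd*, *Rpe* and *Pgls*) with the 18 cultures as separate samples in edgeR or DESeq2, 4 with the culture number as a replicate block, 2 (with *H6pd*) with limma-voom and the line as a random effect, 0 with the line number as a replicate block, and 0 to 1 when 1 line was left out. The count over all genes (274) was 6096 in edgeR and 7186 in DESeq2 on 18 cultures, 6007 with the culture block, 2173 with limma-voom, 2060 with DESeq2 on 6 lines, 423 with raw library totals, 0 with the line block (edgeR, 2878 genes at an unadjusted p under 0.05), and 0 to 172 without 1 line (the 0 without *Nf1*/*Cdkn2a* dKO line 1 by edgeR, with 2668 at an unadjusted p under 0.05). The count of pathway neighbours (2 of 31, the NRF2-linked genes not included) was 14, 13, 11, 7, 4 and 0 in edgeR and DESeq2 on 18 cultures, the culture block, limma-voom, DESeq2 on 6 lines and the line block, and 0 to 2 without 1 line. Every setting that called more members than the main test also called many more genes over all. The rise in members called is therefore no result about the members. Treating cultures as samples counts each tumor 3 times. Raw library totals moved the median of all genes to -0.16 and the share of calls higher in *Nf1*/*Cdkn2a* dKO from 35.4% to 20.3%. They reversed *Rpia* (-0.032), and *Umps* (0.25) ran from -0.0038 (without *Nf1*/*p53* dKO line 3) to 0.41 without 1 line. *Taldo1* kept its direction in all 17 alternatives (log2 fold change 0.92 to 1.12) and lost its call in 6, which were the line block (adjusted p = 0.119) and 5 of the fits without a line. The adjusted p ranged from 3.20e-35 to 0.124.

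Line numbers did not pair the samples. The deviations of same-numbered lines of the genotypes correlated at -0.12, -0.13 and -0.08, against 0.02 to 0.08 for the other pairs. Culture numbers gave a median correlation of -0.0037 between lines. The number of members called between the lines of a genotype stayed within 1.5 times its value in every alternative run, and the difference in log2 ratio of *Taldo1* to *Tkt* (0.64) ran from 0.39 to 0.86 without 1 line. In the simulation of 6 lines, 3 of 100 genes changed by 1 on the log2 scale were called. It changed 100 genes by 1 and 100 by 2 among 14894. In these data 22.4% of genes had an unadjusted p under 0.05 (edgeR), so that rate may not carry over. Changes smaller than 1, as fitted for most members, were not simulated.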
